A study of Homo sapiens with 6 samples.

Results

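The 10 genes of the contractile actin cytoskeleton linked to serum response factor (SRF) are described here in 6 RNA sequencing libraries of U2OS, an established human osteosarcoma cell line. They are the actin genes ACTB, ACTG1 and ACTA2, the tropomyosin genes TPM1 and TPM2, the calponin genes CNN1 and CNN2, the transgelin gene TAGLN, the myosin regulatory light chain gene MYL9, and SRF itself. The 10 genes were chosen by symbol, out of 50550 rows of the deposited tables, with their count-based fold changes in this contrast already known. All 10 passed the filter on low counts that left 21933 genes for testing. Because the choice used the only contrast of the study, their differences are given as a description and carry no p-value.

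The groups were Lv_LINC00673 (3 libraries) and Lv_NC (3 libraries). By the titles and the design text, the first are U2OS cells meant to have lower LINC00673, a long noncoding RNA, and the labels do not say what NC stands for, while the design text speaks of wild-type cells. Both groups are named by their titles, since LINC00673 itself stood at 6.39 ± 0.159 TMM-normalized CPM (read counts scaled to a common library size) in Lv_LINC00673 and 8.50 ± 1.24 CPM in Lv_NC (SD, n = 3 each), a difference of -0.41 on the log2 scale (SE 0.16) that missed the 0.05 threshold of edgeR's quasi-likelihood test (adjusted p = 0.0924). Every fold change is Lv_LINC00673 over Lv_NC. Whether the 3 libraries of a group stem from different cultures is not stated, and errors and p-values therefore cover the scatter of these libraries alone, possibly a technical one.

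Total counts ranged from 61815841 to 71237493 in Lv_LINC00673 and from 76814723 to 87227980 in Lv_NC. The 9 bone markers summed to 657 to 766 CPM in Lv_LINC00673 and 748 to 828 CPM in Lv_NC, and of 5 tested 2 rose (RUNX2 and ALPL, log2 fold change 1.25 and 0.50, adjusted p = 0.00921 and 0.0278) and 1 fell (SPARC, -0.36, adjusted p = 0.0141), with a list median of 0.50, while SP7, BGLAP, IBSP and COL1A2 were near 0. Of the blood markers, HBB and LYZ were at 0 counts in all libraries and CD3E stayed under 10 counts, while CD68 averaged 63.2 ± 6.04 CPM in Lv_LINC00673 and 68.1 ± 10.2 CPM in Lv_NC (SD, n = 3 each). The 5 endothelial markers summed to 5.32 to 6.59 CPM in Lv_LINC00673 and 4.02 to 4.37 CPM in Lv_NC, and KDR stayed under 10 counts. The 6 epithelial markers summed to 2381 to 2860 CPM in Lv_LINC00673 and 3440 to 3763 CPM in Lv_NC, nearly all of it KRT8 and KRT18, with KRT19 under 10 counts. Of 5 tested 0 rose and 2 fell, KRT8 and KRT18 (log2 fold change -0.46 and -0.47, adjusted p = 0.0115 and 0.0086). With the offset for GC content and length described below, KRT18 did not pass (adjusted p = 0.258). Of all tested genes 14.3% were called higher and 12.5% lower. The part of the differences in totals and markers in the results below was not tested.

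SRF is a transcription factor that binds a short element known as the CArG box. It works with partner proteins of the myocardin family, whose members MRTFA and MRTFB are held in the cytoplasm by unpolymerised actin and enter the nucleus when actin is built into filaments, and with ternary complex factors such as ELK1, which answer to MAP kinase signalling. Through the first branch SRF drives genes of actin and its binding proteins, SRF among them. In smooth muscle the same genes encode the contractile apparatus, while in other cells beta and gamma actin, tropomyosins and calponins build stress fibres.

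The promoters are shown because the SRF element can be read in them. RefSeq promoters (GRCh38.p14) were at hand for 7 of the 10 genes, and the 250 bases before each start were searched for the CArG box on both strands, which for this palindrome is 1 search. The promoters of TAGLN, ACTB and MYL9 were not among them. SRF at its first start, ACTG1 and CNN2 held a full CArG box, and ACTA2, at the second of its 2 starts, held 2 boxes with a G or C at 1 place in the A/T core. In the following lines, 5′ to 3′ on the strand of the gene and ending at the base before the start, capitals mark these boxes.
SRF (chr6:43171019-43171268, plus strand): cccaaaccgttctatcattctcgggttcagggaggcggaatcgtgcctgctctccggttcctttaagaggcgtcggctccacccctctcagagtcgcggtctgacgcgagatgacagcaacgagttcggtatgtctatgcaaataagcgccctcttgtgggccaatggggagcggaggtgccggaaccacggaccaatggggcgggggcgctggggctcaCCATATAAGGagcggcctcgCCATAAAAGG
ACTG1 (chr17:81512800-81513049, minus strand): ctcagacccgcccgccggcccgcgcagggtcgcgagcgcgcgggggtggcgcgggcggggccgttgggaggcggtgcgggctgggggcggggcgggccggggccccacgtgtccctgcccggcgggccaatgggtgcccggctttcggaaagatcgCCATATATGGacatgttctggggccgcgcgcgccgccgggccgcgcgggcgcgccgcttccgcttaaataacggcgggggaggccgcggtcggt
CNN2 (chr19:1026358-1026607, plus strand): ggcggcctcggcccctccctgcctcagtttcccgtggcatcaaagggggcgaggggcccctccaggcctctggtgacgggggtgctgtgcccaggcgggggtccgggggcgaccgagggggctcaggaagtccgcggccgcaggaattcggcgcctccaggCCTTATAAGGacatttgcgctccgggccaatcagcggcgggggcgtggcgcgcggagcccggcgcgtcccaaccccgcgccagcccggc
ACTA2 (chr10:88952774-88953023, minus strand): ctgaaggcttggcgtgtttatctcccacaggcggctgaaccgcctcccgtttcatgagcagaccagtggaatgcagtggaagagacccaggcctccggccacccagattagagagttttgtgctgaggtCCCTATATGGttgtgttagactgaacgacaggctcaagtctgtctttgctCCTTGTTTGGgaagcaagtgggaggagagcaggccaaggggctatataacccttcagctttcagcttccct

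At the first of its 2 starts SRF held 2 boxes, CCATATAAGG beginning 30 bases and CCATAAAAGG beginning 10 bases before the start. ACTG1 held CCATATATGG beginning 94 bases before its start and CNN2 held CCTTATAAGG beginning 89 bases before its start. In ACTA2, CCCTATATGG began 121 and CCTTGTTTGG 71 bases before the start. Of 35116 RefSeq promoter windows of the same length, 407 (1.16%) held a full box and 2472 (7.04%) held a full box or one with 1 G or C in the core. No such box was found in the windows of CNN1, TPM1 and TPM2, which says only that these letters are not in these windows. Of 3 other motifs searched on both strands, GGAATG (MCAT) stood in the second ACTA2 window and in 11.9% of all windows, CCGGAAGT (ETS) stood in the TPM1 window and in 3.42% of all windows, and TATAAA stood in no member's window and in 10.7% of all windows. A match is not evidence of binding.

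The levels of the 10 genes spanned more than 3 orders of magnitude on the deposited FPKM scale, which is per transcript length. Cytoplasmic beta actin (ACTB) was the most abundant, at 4217 to 5894 FPKM over the 6 libraries, followed by gamma actin (ACTG1) at 1692 to 2791 FPKM. TPM2, encoding beta tropomyosin, ranged from 361 to 487 FPKM, and CNN2, encoding the calponin of non-muscle cells, from 115 to 159 FPKM. None of these ranges met its neighbour in the order. TPM1, encoding alpha tropomyosin, followed at 70.0 to 87.1 FPKM. MYL9 at 25.5 to 41.7 FPKM, SRF at 18.9 to 34.6 FPKM and TAGLN at 12.4 to 29.8 FPKM had overlapping ranges. Library by library, MYL9 was above both others in all 6, while SRF and TAGLN changed places in the first Lv_NC library. CNN1, encoding the smooth muscle calponin, ranged from 8.61 to 11.1 FPKM and ACTA2, encoding smooth muscle alpha actin, from 1.11 to 1.52 FPKM, below the others in all libraries. Actin genes resemble each other and have many processed pseudogenes, so reads of single actin genes are uncertain where the counting could not place them.

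**Figure D1:**
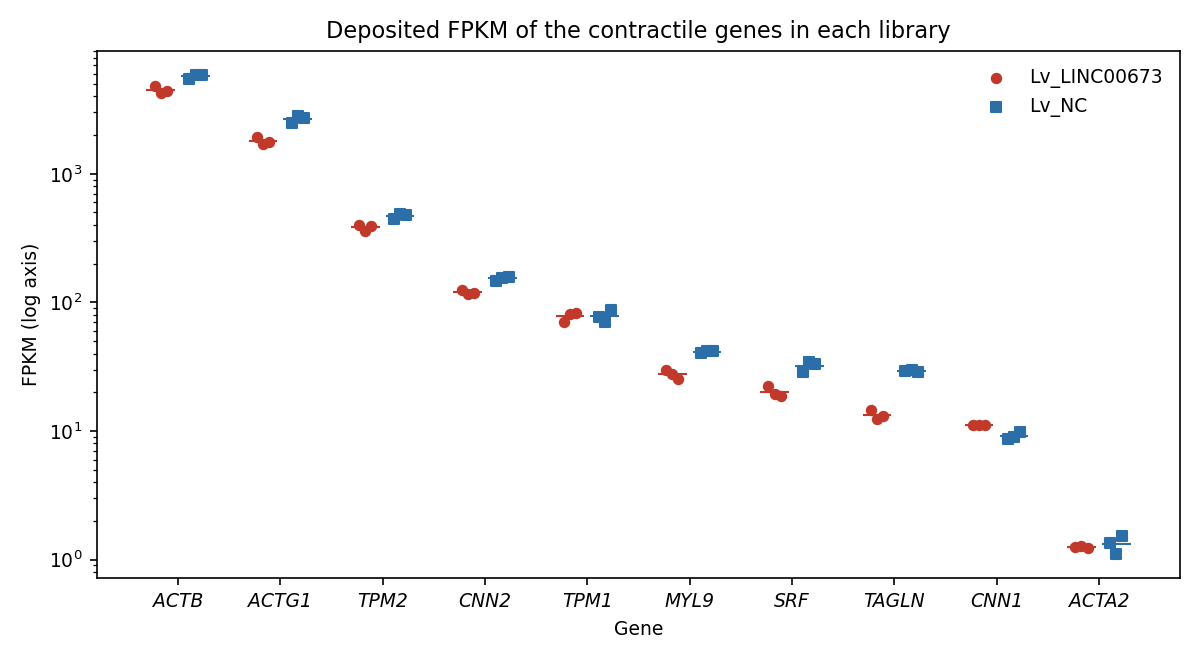
Deposited FPKM (log axis) of the 10 genes, ordered by mean level, with 1 point per library (3 Lv_LINC00673, 3 Lv_NC) and a line at the mean of each group. ACTB lies at 4217 to 5894 FPKM and ACTA2 at 1.11 to 1.52 FPKM, and TAGLN shows the widest gap between groups.

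Of the 10 genes, 7 passed an adjusted p of 0.05 as lower and 0 as higher in Lv_LINC00673, where 26.8% of all tested genes were called, 12.5% lower and 14.3% higher. Since the genes were chosen with this contrast known, nothing is read from this count. The same holds for the counts of genes whose groups did not overlap. The median log2 fold change was -0.52 over the 10 genes and 0.05 over all tested genes, and single values ran from -1.29 to 0.08. Those 7 genes were also the ones whose groups did not overlap in CPM, all lower. Of all tested genes 45.1% had groups that did not overlap in CPM, 21.4% lower and 23.7% higher. In these bulk libraries, fewer cells expressing a gene and less of its RNA per cell cannot be told apart. The 7 were TAGLN, SRF, MYL9, ACTG1, ACTB, CNN2 and TPM2, while ACTA2, TPM1 and CNN1 overlapped.

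TAGLN encodes transgelin (SM22), an actin-binding protein of smooth muscle and mesenchymal cells. Its level was 56.0, 45.8 and 48.4 CPM in the Lv_LINC00673 libraries, against 122, 126 and 120 CPM in the Lv_NC libraries. All 3 Lv_LINC00673 libraries lay well below the lowest Lv_NC library. The log2 fold change was -1.29 (SE 0.10), the lowest of the 10. Its FPKM values were 14.5, 12.4 and 13.0 in Lv_LINC00673 and 29.2, 29.8 and 28.8 in Lv_NC. TAGLN lies on chromosome 11 from 117199294 to 117207465 (GRCh38.p14) and overlaps PCSK7 and LOC100652768 there, so without a stated strand setting reads of the overlap cannot be assigned with certainty.

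SRF was next, at 95.8, 78.6 and 77.8 CPM in Lv_LINC00673 and 132, 164 and 154 CPM in Lv_NC. The groups did not overlap, and the log2 fold change was -0.83 (SE 0.12). The regulatory light chain gene MYL9, whose product is phosphorylated to switch on non-muscle and smooth muscle myosin, had 84.1, 74.3 and 69.1 CPM in Lv_LINC00673 and 123, 129 and 127 CPM in Lv_NC, with a log2 fold change of -0.74 (SE 0.10). In both genes the first Lv_LINC00673 library was the highest of its group. MYL9 overlaps DLGAP4-AS1, and reads of the overlap cannot be told apart without the strand setting.

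The cytoplasmic actins made up most of the reads of the 10 genes. ACTB had 8837, 7336 and 7739 CPM in Lv_LINC00673 and 10797, 11939 and 11667 CPM in Lv_NC (log2 difference -0.52, SE 0.09). ACTG1 had 3739, 3120 and 3323 CPM in Lv_LINC00673 and 5205, 5990 and 5726 CPM in Lv_NC (log2 difference -0.73, SE 0.09). Both were lower in all 3 Lv_LINC00673 libraries. As a share of all counts of a library, the 10 genes took 1.24 to 1.41% in Lv_LINC00673 and 1.66 to 1.81% in Lv_NC.

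Among the filament-binding genes CNN2 averaged 253 ± 18.8 CPM in Lv_LINC00673 and 363 ± 19.0 CPM in Lv_NC, and TPM2 averaged 445 ± 37.3 CPM in Lv_LINC00673 and 615 ± 38.5 CPM in Lv_NC (SD, n = 3 each). Their log2 fold changes were -0.52 (SE 0.09) and -0.47 (SE 0.09), without overlap of the groups. TPM1 had 119, 131 and 134 CPM in Lv_LINC00673 and 139, 129 and 153 CPM in Lv_NC, which overlap (log2 fold change -0.14, SE 0.10). The transcript TPM1-AS, which overlaps TPM1, averaged 9.47 ± 0.876 CPM in Lv_LINC00673 and 10.1 ± 1.44 CPM in Lv_NC (SD, n = 3 each), and reads of the overlap cannot be told apart without the strand setting.

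CNN1 and ACTA2, known best from differentiated smooth muscle, showed no such gap. CNN1 averaged 16.9 ± 0.345 CPM in Lv_LINC00673 and 15.9 ± 1.21 CPM in Lv_NC (SD, n = 3 each; log2 fold change 0.08, SE 0.12). ACTA2 had 166, 146 and 145 counts in Lv_LINC00673 and 200, 177 and 214 counts in Lv_NC, or 2.27, 2.18 and 2.13 CPM against 2.58, 2.19 and 2.93 CPM. The groups of both genes overlapped in CPM. The log2 fold change of ACTA2 was -0.23 (SE 0.20). ACTA2 overlaps ACTA2-AS1, which had 5 to 13 counts in Lv_LINC00673 and 0 to 5 counts in Lv_NC, and FAS.

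These values depended on the scaling and on the composition of the transcripts. With library totals in place of TMM factors, the median over all tested genes was 0.22 on the log2 scale instead of 0.05, and that of the 10 genes was -0.36. Across 10877 genes, which are not independent replicates, the log2 fold change had a Spearman correlation of -0.52 with GC content and 0.41 with transcript length. Of the 10 genes, all lay above the median GC content of tested genes (median of the 10 58.6%, of tested genes 50.4%), and SRF was the one gene longer than the tested median of 2416 bases. A fit with an offset for GC content and length in each library, run on 16180 genes, gave the 10 genes a median of -0.21. In that fit TAGLN had a log2 fold change of -0.89 (SE 0.06), SRF -0.74 (SE 0.07), ACTG1 -0.44 (SE 0.04), MYL9 -0.41 (SE 0.07), CNN2 -0.22 (SE 0.05) and ACTB -0.21 (SE 0.04). TPM2 was at -0.05 (SE 0.04). ACTA2 and TPM1 were slightly positive at 0.04 (SE 0.20) and 0.14 (SE 0.08), and CNN1 was at 0.46 (SE 0.10). Of the 10, 6 were called lower and 1 higher in that fit (background 16% lower and 16.7% higher). As the genes were chosen with this contrast known, nothing is read from this count either. The offset also removes any real difference that follows GC content or length, and the part of either in these values was not tested further.

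**Figure D2:**
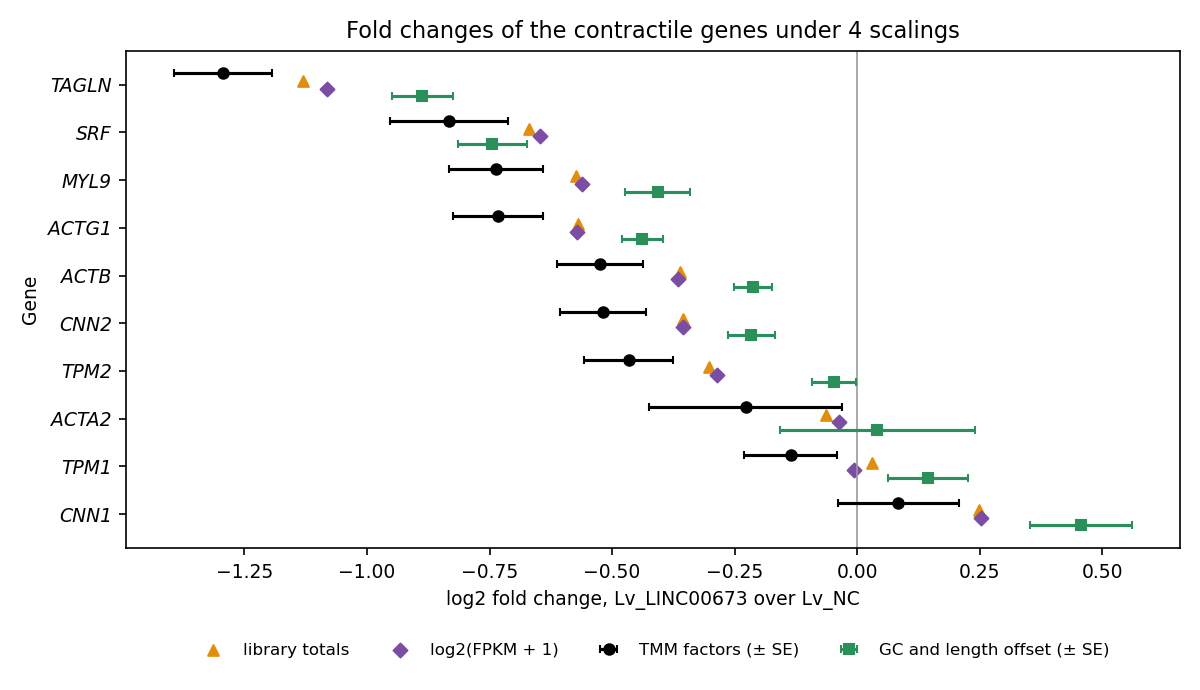
The log2 fold change (Lv_LINC00673 over Lv_NC) of each of the 10 genes under 4 scalings, with SE bars for both edgeR fits. TAGLN runs from -1.29 to -0.89 and SRF from -0.83 to -0.65, all below 0, TPM1 and ACTA2 lie on both sides of 0, and CNN1 is above 0 under all 4.

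The direction of 7 genes was thus the same under the 4 scalings shown, that of TPM1 and ACTA2 was not, and CNN1 was positive under all 4. On the FPKM scale CNN1 had 11.0, 11.1 and 11.1 in Lv_LINC00673 and 8.61, 8.98 and 9.85 in Lv_NC, without overlap. In FPKM, 7 of the 10 genes were lower without overlap and 1 higher, where 42.8% of all tested genes did not overlap, 13.1% lower and 29.7% higher. From this count, too, nothing is read, given how the genes were chosen.

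Within groups the 10 genes tended to be ordered alike in TMM-normalized CPM, the scale of the following counts. The first Lv_LINC00673 library was the highest of its group for 9 of the 10 genes, all but TPM1, where 36.6% of all tested genes had their highest value there. The first Lv_NC library was the lowest of its group for 7 of the 10, against 32.9% of all tested genes. The second Lv_NC library was the highest for 7, against 32.7% of all tested genes. These counts describe 6 libraries, and the genes share them. They also depend on the scale. In FPKM the first Lv_LINC00673 library was not the highest for CNN1 (11.04, 11.07 and 11.14) or ACTA2 (1.26, 1.29 and 1.23). CNN2 and MYL9 were there highest in Lv_NC library 3, at 159 and 41.7 FPKM.

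Shares within each gene family do not depend on the library scaling, but they were not adjusted for GC content. ACTB and ACTG1 both had 56.0% GC, whereas CNN2 had 58.8% and CNN3 45.2%, and TPM2 had 58.9% and TPM3 46.8%. In the offset fit CNN2 and CNN3 had log2 fold changes of -0.22 and -0.32. TPM2, TPM3 and TPM4 were there at -0.05, 0.17 and -0.60. The part of GC content in the shares was not tested. ACTG1 made up 28.5, 28.6 and 28.8% of the summed FPKM of the 6 actin genes in Lv_LINC00673 and 31.3, 32.1 and 31.7% in Lv_NC, with ACTB taking nearly all of the rest (71.3 ± 0.154% in Lv_LINC00673 and 68.3 ± 0.429% in Lv_NC; SD, n = 3 each). The groups did not overlap, and the difference of -3.03 percentage points for ACTG1 was several times the SD between libraries. ACTA2 was 0.0202 ± 0.00151% of actin FPKM in Lv_LINC00673 and 0.0157 ± 0.00263% in Lv_NC, and ACTC1 was 0.0111 ± 0.00159% in Lv_LINC00673 and 0.00759 ± 0.00131% in Lv_NC. ACTA1 and ACTG2 took less than ACTC1 in every library.

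Among the calponins CNN1 took 5.09, 5.14 and 4.96% of calponin FPKM in Lv_LINC00673 and 3.47, 3.67 and 3.71% in Lv_NC, without overlap. CNN2 took 54.7 ± 2.99% in Lv_LINC00673 and 60.7 ± 2.57% in Lv_NC, without overlap, and CNN3, which held most of the remainder, took 40.2 ± 3.04% in Lv_LINC00673 and 35.7 ± 2.65% in Lv_NC, with overlap. TAGLN took 2.65 ± 0.400% of transgelin FPKM in Lv_LINC00673 and 4.90 ± 0.944% in Lv_NC, the rest being almost wholly TAGLN2. Among the 4 myosin light chains MYL9 took 2.64 ± 0.199% in Lv_LINC00673 and 3.37 ± 0.105% in Lv_NC (SD, n = 3 each throughout). This set of MYL9, MYL12A, MYL12B and MYL6 left out MYL2, which averaged 80.4 FPKM in Lv_LINC00673 and 117 FPKM in Lv_NC. Among the 4 tropomyosins TPM2 took 53.2 ± 2.47% in Lv_LINC00673 and 58.2 ± 2.67% in Lv_NC, and TPM1 took 10.8 ± 0.889% in Lv_LINC00673 and 9.69 ± 0.968% in Lv_NC, both overlapping. TPM3 took 21.5 ± 1.04% in Lv_LINC00673 and 14.6 ± 3.14% in Lv_NC, without overlap. Where counts divided by GENCODE transcript length replaced FPKM, TAGLN took 8.98% in Lv_LINC00673 and 15.7% in Lv_NC, so the level of that share depends on the length used while its direction does not.

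**Figure D3:**
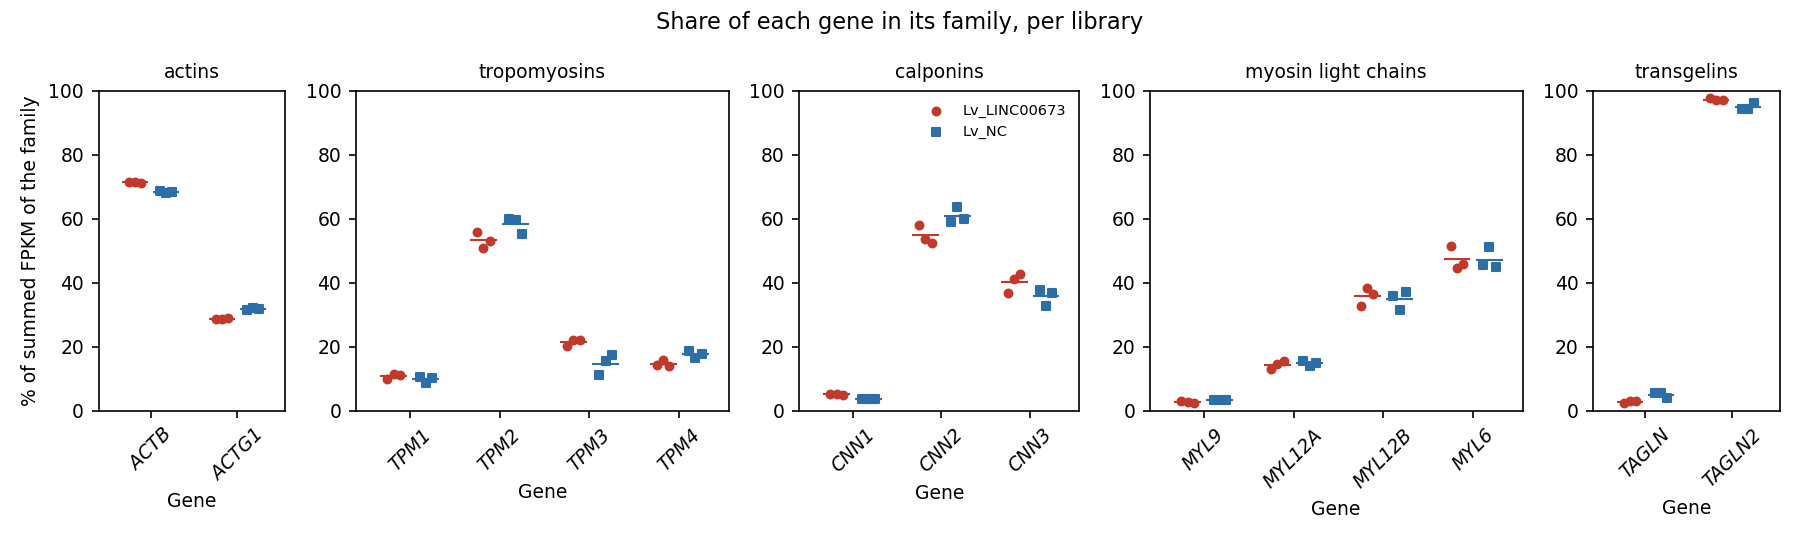
Percent of the summed FPKM of each family taken by each gene, 1 point per library with a line at the group mean, for actins (minor members not drawn), tropomyosins, calponins, myosin light chains and transgelins (TAGLN3 not drawn). ACTG1 lies at 28.5 to 28.8% in Lv_LINC00673 and 31.3 to 32.1% in Lv_NC, and the shares of MYL12A, MYL12B and MYL6 overlap between groups.

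The nearest relatives of the 10 genes are given with their test, although these lists too were drawn up with earlier results of these data known. Of 11 paralogs 10 were tested, and 5 fell and 0 rose at an adjusted p of 0.05 (median log2 fold change -0.38), where 12.5% of all tested genes were called lower and 14.3% higher. With library totals 2 fell, and 3 fell without Lv_LINC00673 library 3 or Lv_NC library 3. TAGLN3, a transgelin best known from neurons, was at 1.07 ± 0.307 CPM in Lv_LINC00673 and 2.95 ± 0.976 CPM in Lv_NC (log2 difference -1.46, SE 0.31, adjusted p = 0.0124). TPM4, a tropomyosin of non-muscle cells, fell to 266 ± 6.26 CPM in Lv_LINC00673, against 388 ± 26.1 CPM in Lv_NC (log2 difference -0.55, SE 0.08, adjusted p = 0.0048). The non-muscle light chain genes MYL12A, MYL12B and MYL6 fell with log2 fold changes of -0.43, -0.35 and -0.39 (adjusted p = 0.0102, 0.0213 and 0.0241). With library totals these 3 did not pass (adjusted p = 0.0608, 0.181 and 0.0807), and with the GC and length offset MYL6 stood at -0.01 (adjusted p = 0.926). MYL6 also did not pass without Lv_LINC00673 library 2 or 3 or Lv_NC library 2 or 3 (adjusted p = 0.0825, 0.0926, 0.0797 and 0.0524), nor MYL12B without Lv_LINC00673 library 3 or Lv_NC library 1 or 3 (0.0742, 0.0524 and 0.0784).

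The other paralogs did not pass. TAGLN2 had 904, 543 and 597 CPM in Lv_LINC00673 and 738, 813 and 1088 CPM in Lv_NC (log2 difference -0.37, SE 0.21, adjusted p = 0.229), so its level varied more among libraries than that of TAGLN. Without Lv_LINC00673 library 1 it passed, with a log2 fold change of -0.64. CNN3 was at -0.20 (SE 0.10, adjusted p = 0.169; with the offset -0.32, adjusted p = 0.00609) and TPM3 at 0.18 (SE 0.18, adjusted p = 0.488). The striated muscle actin genes ACTA1 and ACTC1 averaged 0.108 and 0.963 CPM in Lv_LINC00673 and 0.157 and 0.978 CPM in Lv_NC (adjusted p = 0.748 and 0.967), and ACTG2, an enteric smooth muscle actin gene, had at most 13 counts in a library and was not tested. POTEE and POTEF, fusion genes that end in an actin-like module and were looked up after their values were seen, rose to 19.9 ± 2.58 and 24.9 ± 4.83 CPM in Lv_LINC00673, against 8.17 ± 1.84 and 11.2 ± 1.37 CPM in Lv_NC (SD, n = 3 each; adjusted p = 0.00476 and 0.00531). They belong to a family of near-identical genes and are uncertain.

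The partners of SRF differed among themselves. Of 10 cofactor genes 9 were tested. Where 14.3% of all tested genes were called higher and 12.5% lower, 2 cofactor genes rose and 2 fell (median log2 fold change -0.13). When library 2 or library 3 of either group was left out, 1 rose and 2 fell. MRTFA, the main actin-regulated coactivator, had 77.2, 62.1 and 69.4 CPM in Lv_LINC00673 and 70.8, 75.6 and 73.0 CPM in Lv_NC, which overlap (log2 fold change -0.07, SE 0.10, adjusted p = 0.639). Its relative MRTFB rose to 14.3, 21.0 and 13.3 CPM in Lv_LINC00673, against 7.12, 4.78 and 5.92 CPM in Lv_NC (log2 difference 1.45, SE 0.23, adjusted p = 0.00533; with the offset 1.20, adjusted p = 0.000822). MYOCD, the coactivator of smooth and cardiac muscle, stayed under 10 counts in every library.

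Of the ternary complex factor genes, ELK4 rose to 19.0 ± 4.72 CPM in Lv_LINC00673, against 10.4 ± 2.50 CPM in Lv_NC (log2 difference 0.87, SE 0.23, adjusted p = 0.0272), but not with the offset (0.22, adjusted p = 0.223). It also lost its call without Lv_LINC00673 library 2 or 3 or Lv_NC library 2 or 3 (adjusted p = 0.0997, 0.0947, 0.0722 and 0.0976). ELK1 and ELK3 did not pass (log2 fold change -0.17 and 0.27, adjusted p = 0.212 and 0.0998; with the offset 0.12 and -0.19). The LIM protein genes CSRP1 and FHL2, whose products bind actin structures and can act with SRF, fell to 229 ± 22.1 and 172 ± 13.2 CPM in Lv_LINC00673, against 422 ± 15.8 and 263 ± 2.88 CPM in Lv_NC (log2 fold change -0.88 and -0.61, adjusted p = 0.00243 and 0.0044). Both also passed with the offset, at -0.47 and -0.37. CSRP2 and FHL1 did not pass (log2 fold change -0.28 and -0.13, adjusted p = 0.0997 and 0.244), but FHL1 was called lower with the offset (-0.21, adjusted p = 0.0403), which then gave 1 cofactor gene higher and 3 lower.

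Other actin-binding and myosin genes described as SRF targets were likewise divided. Of 29 tested, 8 fell and 5 rose (median -0.06), where 12.5% of all tested genes were called lower and 14.3% higher. With the offset 8 of the 29 fell and 7 rose. Without Lv_LINC00673 library 2 or 3 or Lv_NC library 3 the counts were 5 and 3, without Lv_NC library 2 they were 5 and 4, without Lv_NC library 1 they were 8 and 8, and with library totals 5 and 8. WDR1, encoding a cofactor of actin disassembly, fell to 338 ± 59.9 CPM in Lv_LINC00673, against 565 ± 22.6 CPM in Lv_NC (log2 difference -0.74, SE 0.13, adjusted p = 0.00646). The crosslinker genes ACTN1 and FLNC fell with log2 fold changes of -0.62 and -0.59 (adjusted p = 0.0044 and 0.00677). ZYX, a focal adhesion gene, was at -0.67 (adjusted p = 0.034), but its groups overlapped and it did not pass with the offset (adjusted p = 0.0934), with library totals (0.0803), nor with any of 4 libraries left out, namely library 2 or 3 of Lv_LINC00673 (0.113 and 0.114) or of Lv_NC (0.107 and 0.122). Rises were seen for SVIL, MYH10, CAPZA1 and PALLD, with log2 fold changes of 0.98, 0.98, 0.83 and 0.61 (adjusted p = 0.0054, 0.00818, 0.0142 and 0.00631). With the offset they were at 0.67, 0.63, 0.41 and 0.45. CAPZA1 lost its call without Lv_LINC00673 library 2 or 3 or Lv_NC library 3 (adjusted p = 0.0555, 0.0595 and 0.0523).

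Immediate early genes, the other class of SRF targets, fell in 7 of 12 tested members and rose in 0 (median -0.39), where 12.5% of all tested genes were called lower and 14.3% higher. With library totals 5 fell and in the fits on FPKM 4 fell. With the offset 7 fell and 0 rose (median -0.27), and 4 fell without Lv_LINC00673 library 2 or 3 or Lv_NC library 2 or 3. NR4A1, an orphan receptor gene, and FOS, a subunit of AP-1, had log2 fold changes of -1.27 and -1.13 (adjusted p = 0.0011 and 0.00297). FOSB, another AP-1 subunit gene, fell to 3.49 ± 0.177 CPM in Lv_LINC00673, against 6.98 ± 1.64 CPM in Lv_NC (adjusted p = 0.0103). EGR4 was at -1.46 with a level of 0.387 CPM in Lv_LINC00673 and 1.07 CPM in Lv_NC (adjusted p = 0.0247), and did not pass without Lv_LINC00673 library 2 or 3 or Lv_NC library 2 or 3 (0.0726, 0.0849, 0.0817 and 0.0841).

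Over the 100 genes of the 7 related lists, 1 of which is not reported singly, 92 were tested. Among these 16 rose and 32 fell, where 14.3% of all tested genes were called higher and 12.5% lower. The counts were 10 and 21 without Lv_LINC00673 library 2, 10 and 19 without Lv_LINC00673 library 3, and 9 and 19 without Lv_NC library 3. With library totals 21 rose and 21 fell, and on the log2(FPKM + 1) scale 18 rose and 18 fell, so the balance of directions depends on the scaling.

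**Figure D4:**
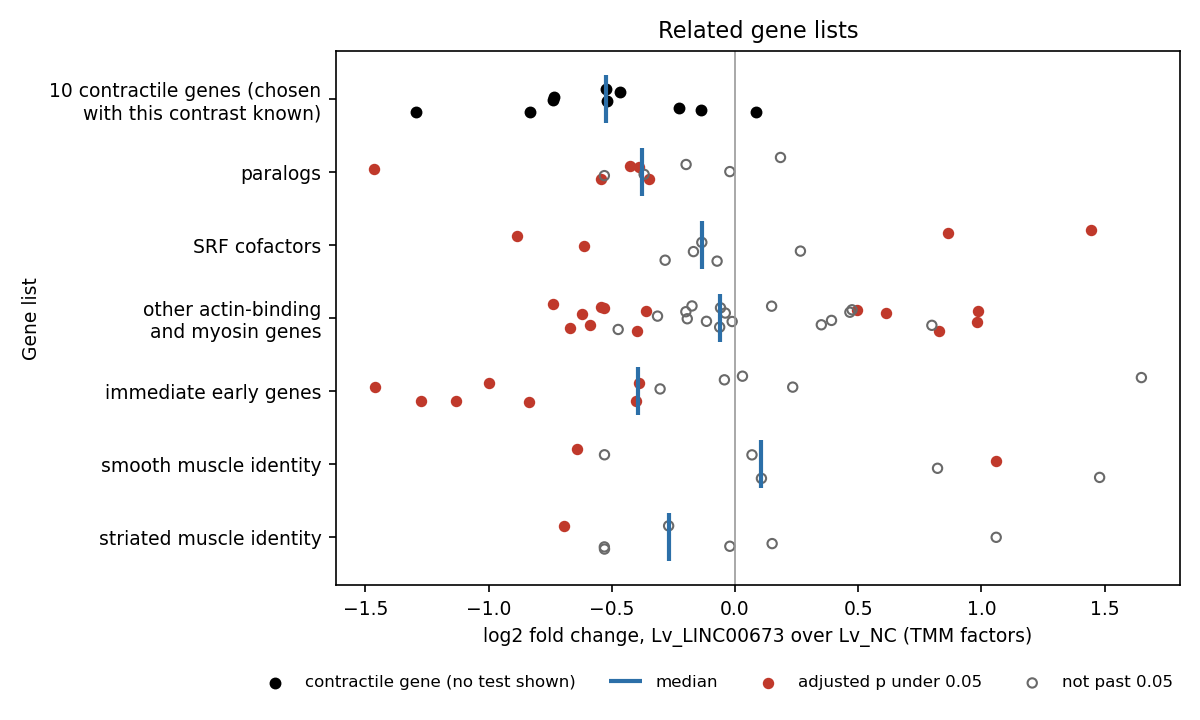
The log2 fold change (TMM factors) of each tested gene in the 10 contractile genes and 6 related lists, with black points for the 10 (no test shown), red points for an adjusted p under 0.05, open points for others and a bar at the list median. The immediate early and paralog lists have called genes on the lower side alone, as has the striated muscle list with its 1 called gene. The other actin-binding and myosin genes have 5 on the higher and 8 on the lower side.

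Markers of muscle identity were mostly at the edge of detection. Of 10 smooth muscle genes 7 were tested, and SMTN fell and MYLK rose, with 12.5% of all tested genes called lower and 14.3% higher. MYLK, encoding myosin light chain kinase, had 24.5, 33.7 and 25.9 CPM in Lv_LINC00673 and 15.7, 11.4 and 13.3 CPM in Lv_NC (log2 difference 1.06, SE 0.17, adjusted p = 0.0058), and stood at 0.80 with the offset (adjusted p = 0.00174). SMTN, encoding smoothelin, was the most abundant at 304 ± 34.0 CPM in Lv_LINC00673 and 474 ± 33.2 CPM in Lv_NC (log2 difference -0.64, SE 0.10, adjusted p = 0.00545). MYH11, the smooth muscle myosin heavy chain gene, stood at 0.536 CPM in Lv_LINC00673 and 0.512 CPM in Lv_NC, and CASQ2 was at 0 in all libraries, where 3 counts would be 0.0370 to 0.0448 CPM. Of 12 striated muscle genes 7 were tested. TNNC1 was well detected, at 10.1 ± 0.659 CPM in Lv_LINC00673 and 12.2 ± 0.648 CPM in Lv_NC, and did not pass (adjusted p = 0.176). TNNT2 fell (2.86 CPM in Lv_LINC00673, 4.63 CPM in Lv_NC, adjusted p = 0.0164), but not with the offset (adjusted p = 0.218) nor without Lv_LINC00673 library 3 or Lv_NC library 3 (0.0600 and 0.0610). MYOD1, the muscle master regulator gene, was at 24.1 ± 2.16 CPM in Lv_LINC00673 and 21.7 ± 2.03 CPM in Lv_NC (adjusted p = 0.423), but the offset fit called it higher (0.44 on the log2 scale, adjusted p = 0.00451), while MYF5 and MYH7 were at 0 and MYOG under 10 counts.

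Genes with a CArG box in a promoter window were compared with all genes that have one of these windows. Apart from the 10 genes, 186 tested genes held a full box, of which 33 were called higher and 31 lower (34.4%, median log2 fold change -0.02). Of 13681 tested genes with a window, 2279 were called higher and 1973 lower (31.1%, median 0.04). With the offset, 33 and 32 of 175 were called higher and lower (median 0.03), against 2101 and 2067 of 12302 genes with a window (median 0.04). For genes with a full box the counts were 47 higher and 16 lower with library totals. They were 20 and 16 without Lv_LINC00673 library 2, and 20 and 14 without Lv_LINC00673 library 3. Without Lv_NC library 2 they were 26 and 17, and without Lv_NC library 3 they were 22 and 17. The matching counts of all genes with a window were not made. Over all tested genes, 2738 were called lower in the main fit and 1225 with library totals. With those 4 libraries left out in the same order, 1263, 1172, 1531 and 1335 were called lower.

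Finally, the genes whose profile was most like that of TAGLN over the 6 libraries were named by Pearson correlation of log2 CPM among 9508 genes with a mean of at least 10 CPM. They were CCT3, CSF2, NQO1, SRXN1 and SLC25A5, with r of 0.9989 to 0.9995. For SRF they were PLEKHM1, NUDC, COQ9, ERP29 and MYH14, with r of 0.9989 to 0.9995. Of the genes compared, 12.8% had an r over 0.95 with TAGLN and 14.4% with SRF. The difference between groups was not removed before correlating. All the named genes were lower in Lv_LINC00673 without overlap of the groups in CPM, so a high r is not read as shared regulation.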

How the data were processed

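RNA of 6 U2OS libraries was sequenced from total RNA with an Illumina TruSeq kit (per the labels' protocols). As measurements the authors deposited raw read counts per gene and FPKM per gene, with 6 library columns each, and 0 value columns were left unmatched. The genome build was hg38, per the submitters' processing notes. For aligner, counter, annotation release, strand setting and FPKM length model: not given in the sources used here. Of 50550 rows, 6056 carry no gene symbol and hold 3.22 to 4.26% of counts. They stayed in library sizes and tests.

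After filterByExpr and TMM scaling, the counts went into edgeR 4.0.16 (R 4.3.3; robust two-sided quasi-likelihood test) over 21933 genes, with Benjamini-Hochberg adjustment at 0.05. SE is the log2 fold change over the square root of F. Levels are TMM-normalized CPM, mean ± SD. Alternatives were DESeq2 1.42.0, limma 3.58.1 (voom, and log2(FPKM + 1) or log2(FPKM + 0.1)), other scalings and filters, a replicate block, each library left out, and an offset from natural splines (5 degrees of freedom) on GC content and transcript length (medians of GENCODE v29 basic transcripts). The edgeR, DESeq2 and voom fits were tested on simulated data. They called 41.7, 59.4 and 33.3% of genes changed 2-fold, and 8.51, 27.7 and 3.19% of genes changed 1.5-fold. False calls were 10, 57 and 8 in the same order. In the simulation 96 genes were changed 2-fold and 94 genes 1.5-fold among 21249, whereas 26.8% of tested genes were called in the data. The adjustment is stricter where few genes change, so these shares need not hold for the main fit. A gene that did not pass is not shown to be unchanged.

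The members and lists were chosen with earlier results of these data known. Named were the 10 genes, all paralogs and SRF cofactors, up to 4 genes in each direction with the largest change past the threshold in each other list, and the 5 genes most like TAGLN and like SRF. POTEE, POTEF, MYL2, the overlapping transcripts and the marker genes named singly were added after their values were seen. The results of 1 related list, and of single genes named by it alone, are not reported here.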

Additional observations from a re-analysis of the deposited data

How the results depend on the processing

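The median log2 fold change of the 10 contractile genes was -0.52, and -0.61 to -0.49 with 1 library left out. It was -0.36 with library totals and on the log2(FPKM + 1) scale, with or without a minimum mean FPKM of 1, -0.36 on log2(FPKM + 0.1) and -0.21 with the GC and length offset. The cause of these shifts was not tested. In the related lists 16 genes rose and 32 fell, and with 1 library left out 9 to 19 rose and 19 to 35 fell. There 21 fell with library totals and 18 fell in each of the 3 fits on FPKM. Of all genes 3145 were called higher and 2738 lower, and with 1 library left out 1453 to 3254 and 1172 to 3269. The lower count was 1225 with library totals and 1220, 1244 and 1356 in the fits on log2(FPKM + 1), on log2(FPKM + 0.1) and with a minimum mean FPKM. Fewer libraries leave fewer degrees of freedom.

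With the replicate number as a block the median of the 10 genes was -0.52, 4 of them were called lower, 8 related genes rose and 11 fell, and over all genes 800 were called higher and 408 lower. The block together with the offset gave a median of -0.21 and 1936 genes called higher. The block takes up residual degrees of freedom, and same-numbered libraries did not deviate together (correlations of their deviations of -0.42, -0.36 and 0.04 over 12349 genes), so lost calls are not read as weaker effects. Differently numbered libraries did in part. The correlation was 0.45 for Lv_LINC00673 library 1 with Lv_NC library 2 and 0.35 for Lv_LINC00673 library 2 with Lv_NC library 1. The other pairs ran from -0.14 to 0.11, and the cause was not tested.

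Counts divided by GENCODE length in place of FPKM changed the differences in family share to 1.30 percentage points for CNN1 (1.45 from FPKM), -6.70 for TAGLN (-2.25) and -0.98 for MYL9 (-0.72). With 1 library left out the differences ran from 2.80 to 3.23 for ACTB, -3.24 to -2.81 for ACTG1, 0.0029 to 0.0054 for ACTA2, 0.51 to 1.56 for TPM1, -6.52 to -3.81 for TPM2, 1.37 to 1.502 for CNN1, -7.66 to -4.52 for CNN2, -2.79 to -1.92 for TAGLN and -0.82 to -0.62 for MYL9. Outside the 10, the naming rule with LINC00673, MYL2, POTEE, POTEF and TPM1-AS gave 56 tested genes, and markers named singly are not counted here. Of their 1168 values under the alternatives, 1039 kept direction and side of the threshold, 90 lost a call, 20 of them under the block, 10 gained one and 29 changed sign, all with no call in either fit, and the cause was not tested. With library totals ACTC1, MRTFA, FHL1 and TPM1-AS went to 0.14, 0.091, 0.030 and 0.073 on the log2 scale. ACTC1 went to 0.015 with a filter of 1 CPM in 3 libraries. With the offset MRTFA, ELK1, ELK3 and TPM1-AS went to 0.033, 0.12, -0.19 and 0.18, and with the offset and the block to 0.032, 0.12, -0.19 and 0.18. On log2(FPKM + 1) ACTC1, MRTFA, FHL1 and TPM1-AS went to 0.050, 0.090, 0.019 and 0.055, on log2(FPKM + 0.1) to 0.11, 0.095, 0.019 and 0.072, and with a minimum mean FPKM MRTFA, FHL1 and TPM1-AS to 0.090, 0.019 and 0.055. With 1 library left out the range was -1.39 to 0.036 for ACTA1, -0.22 to 0.12 for ACTC1, -0.022 to 0.36 for TPM3 and -0.19 to 0.018 for TPM1-AS. The floor of 3 counts covers counting error only.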

Other observations

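MYL2, the regulatory light chain gene of cardiac and slow skeletal muscle, was counted at 66.7, 58.1 and 60.8 CPM in Lv_LINC00673 and 98.2, 108 and 96.1 CPM in Lv_NC, without overlap of the groups, while MYH7 was at 0 counts in all libraries and MYH6 averaged 0.044 CPM in Lv_LINC00673 and 0.046 CPM in Lv_NC. Its log2 fold change was -0.70 (SE 0.09, adjusted p = 0.00412 in edgeR's quasi-likelihood test; -0.32 with the GC and length offset, adjusted p = 0.00333). The gene was looked at after its values were seen, and whether its reads come from another gene was not tested.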
